A study of Mus musculus with 8 samples.

Results

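Rab GTPases are small proteins that switch between a GTP-bound and a GDP-bound state and mark the membranes of a cell, so that vesicles form, move and fuse at the right place. Exchange factors load them with GTP, GTPase-activating proteins switch them off, GDI takes them from membranes, and effectors bind the active form to carry out a step of transport. In phagocytes such as microglia and macrophages they are best known for the passage of ingested material from the early endosome, marked by Rab5, to the late endosome and lysosome, marked by Rab7. The set described here holds every gene whose name on the array is Rab, a number and at most 1 letter, which gave 57 genes on 81 probes, of 34821 gene names in all. The 10 other names that begin with Rab and a number, such as Rab3ip and Rab11fip1, belong to proteins that act on Rabs or to names of another form and were not members. The scanner software marks on each array which probes are well above background, here called detected, and a gene was tested if its brightest probe was detected on 4 or more of the 8 arrays. This held for 46 of the 57 members and 19720 of all gene names.

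The cells came from ischemic brain tissue of C57BL/6 mice that were bone marrow chimeras, 7 days after a 30 min occlusion of the middle cerebral artery (MCAo). Invading macrophages were sorted as RFP-positive cells and resident microglia as GFP-positive cells, and each of 4 animals (A to D, here replicates 1 to 4) gave 1 sample of either kind. Both groups had had the ischemia and the marrow transplant, and no uninjured mice are described here; the promoters that drive the fluorescent proteins and the ages of the mice are unknown from the sources used here. RNA was amplified by a global PCR before labelling, and all values are log2 signals of a probe relative to the 75th percentile of its array, so that levels of different genes are not compared.

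Microglia markers and monocyte or macrophage markers followed the labels in most genes, while border macrophage markers went both ways. Of 7 listed microglia markers, 6 or 7 were detected on a macrophage array and 7 on a microglia array. Their summed signals (linear, relative to the 75th percentile) were 358, 110, 300 and 353 on macrophage replicates 1 to 4. On microglia arrays the sums were 657.0 to 838.0. For 7 monocyte or macrophage markers the sums were 267, 424, 331 and 189 on macrophage replicates 1 to 4 and 99.9 to 157.0 on microglia arrays. F10, the brightest of these on microglia arrays, went the other way, with a mean of 6.29 in macrophages and 6.58 in microglia. Replicate 2 thus had the lowest microglia sum and the highest monocyte or macrophage sum of the macrophage arrays. Macrophage replicate 2 stood apart, correlating with the other macrophage arrays at 0.855 to 0.887 across gene probes, while those correlated at 0.943 to 0.960 with each other and microglia arrays at 0.940 to 0.964. The median of 8 endothelial markers was 5.82 on macrophage replicate 2, against 1.37, 2.33 and -1.88 on replicates 1, 3 and 4 and -4.12 to -3.03 on microglia arrays. Their summed signal ran from 10.9 to 526.0 on macrophage arrays, with 6 to 8 of the 8 markers detected, and from 4.02 to 5.42 on microglia arrays, with 4 of 8. Of these markers, Cdh5, Slco1a4 and Esam were detected on no microglia array. Pecam1, Flt1 and Kdr were detected on all 4 microglia arrays, and Cldn5 and Tek on 2 of 4. For 7 T or NK cell markers the sums were 0.931 to 11.8 on macrophage arrays and 0.443 to 0.675 on microglia arrays, and for 6 neutrophil markers 179.0 to 218.0 and 134.0 to 167.0 in the same order. For 4 erythroid markers the sums were 3.1, 201, 7.36 and 2.37 on macrophage replicates 1 to 4 and 0.0648 to 1.36 on microglia arrays. Results that passed the test are therefore given with and without macrophage replicate 2, and the part of other cells' RNA in them was not tested.

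The sequences that were measured for the members on which the results turn are shown first, as the opening 30 bases of each 60-base probe, in the sense of the transcript and at its position in build mm9. Rab3d is shown with both of its probes because they gave its result on either side of the threshold.
Rab39, chr9:53492498-53492527, minus strand: acaatgaagacagattttcttgagttcttt
Rab15, chr12:77899021-77899050, minus strand: gtgacctttgtgtactgtgtcttgggtcca
Rab6a, chr7:107789641-107789670, plus strand: cataccctgtaacttatactcaaacatggg
Rab3d, brighter probe, chr9:21713764-21713793, minus strand: ctattcactgaccagactcccctaaacact
Rab3d, dimmer probe, chr9:21719378-21719407, minus strand: cgctaccggacaatcaccacggcctactat
The array files give no exon or UTR annotation for these positions. The 2 Rab3d probes lie on the same strand and do not overlap.

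Few Rabs passed the test between the cells. Of 46 tested members, Rab6a was higher in macrophages, while Rab39 and Rab15 were lower (limma, Benjamini-Hochberg adjusted p under 0.05 over all 19720 gene names). That is 6.52% of the members, beside 6.66% of all gene names tested, with 2.53% of all higher and 4.13% lower. The share of members called was thus near that of all genes. The median difference over the 46 members was 0.08 on the log2 scale, against 0.02 over all gene names, and the median size of a difference was 0.50, against 0.45. An unadjusted p under 0.05 was reached by 12 members, or 26.1%, against 23.9% of all gene names. In 9 members, or 19.6%, the values of the groups did not overlap, 5 of them higher and 4 lower in macrophages. Over all gene names that share was 16.9%, with 7.48% higher and 9.45% lower. In bulk RNA, fewer cells that carry a transcript and less of it per cell cannot be told apart.

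**Figure D1:**
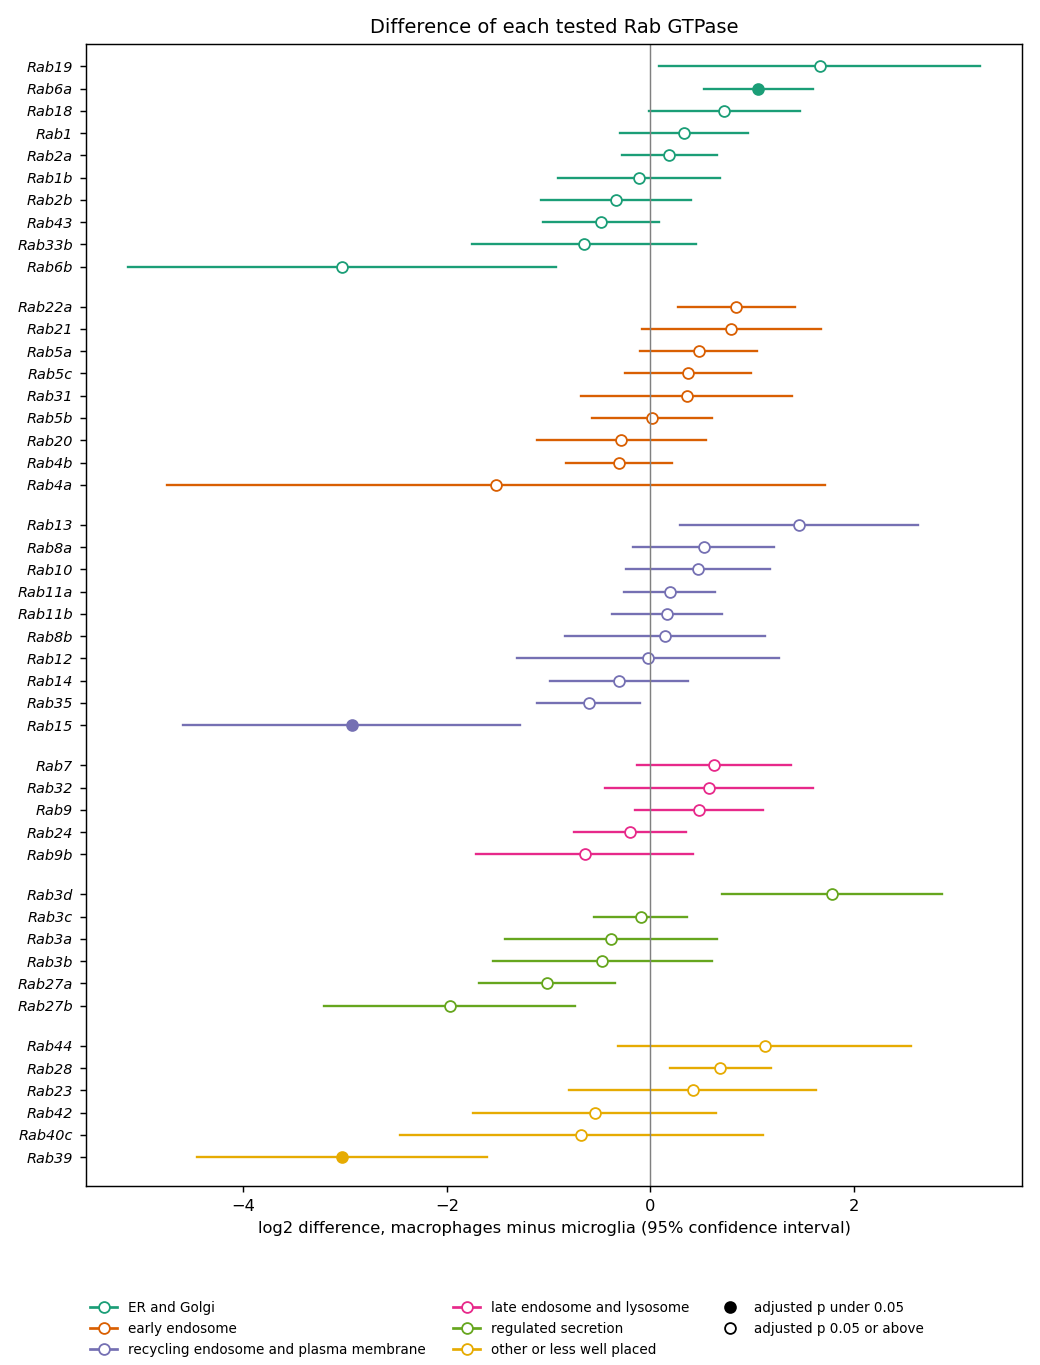
The horizontal axis gives the log2 difference, macrophages minus microglia, of each of the 46 tested Rab genes, with its 95% confidence interval from limma as a line; genes are grouped by colour by where they act. Filled points mark the 3 genes with an adjusted p under 0.05, Rab6a above 0 and Rab15 and Rab39 below it, and the intervals of 34 of the 46 genes hold 0.

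Rab39, which is called RAB39A in humans and is known there from late endosomes and phagosomes, had the clearest difference. Its log2 signals were -2.53, -5.56, -2.65 and -3.19 in macrophages of replicates 1 to 4, against -0.53, -0.11, -0.54 and -0.63 in microglia. The microglia arrays lay close together and all above the macrophage arrays, on 3 of 4 of which the probe was detected. Rab39 fell by 3.03 on the log2 scale (SE 0.62, limma, adjusted p = 0.0255), or 8.15-fold, with the 95% interval from -4.45 to -1.60, and was lower in 4 of 4 animals. With macrophage signals raised to each array's lowest detected signal, the difference of Rab39 was -2.89, or 7.4-fold. With normexp background correction it was -1.48 (limma, adjusted p = 0.00588). Macrophage replicate 2 was the lowest array and the one that did not detect the probe. Without it the difference was -2.33 (limma, adjusted p = 0.00142). Blocked by animal, the adjusted p was 0.0755, and blocked by array slide it was 0.0549.

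Rab15, which acts in recycling from endosomes to the cell surface, was detected on no macrophage array and on all 4 microglia arrays. Its log2 signals were -3.04, -5.61, -6.10 and -3.83 in macrophages, against -0.42, -2.22, -2.02 and -2.18 in microglia. The groups did not overlap, and microglia replicate 1 was far brighter than the other microglia arrays. In the main processing Rab15 was at least 4.55-fold lower in macrophages (measured log2 difference -2.94, SE 0.73, limma, adjusted p = 0.0493). This bound takes for each macrophage array the higher of the array's lowest detected signal and the probe's own. The size depended on the background correction, and with normexp the difference was -0.93 (limma, adjusted p = 0.0993). The adjusted p was 0.0345 blocked by animal, 0.0723 blocked by slide and 0.0595 without macrophage replicate 2. A second Rab15 probe was detected on 1 array and was not tested.

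Rab6a, which works at the Golgi in transport back to the endoplasmic reticulum and in secretory vesicles, went the other way. Its log2 signals were 0.27, 0.24, 0.60 and 0.70 in macrophages, against -0.20, -0.76, -0.62 and -0.85 in microglia. Every macrophage array was above 0 and every microglia array below it. Rab6a was 2.09-fold higher in macrophages (log2 difference 1.06, SE 0.23, limma, adjusted p = 0.0323), and higher in 4 of 4 animals. Without macrophage replicate 2 the difference was 1.13 (adjusted p = 0.0198). Blocked by animal or by slide, its adjusted p was 0.0981 or 0.0679. A second Rab6a probe was detected on 3 arrays and was not tested. On the larger slide alone, which held 5 arrays, the differences were 1.25 for Rab6a, -3.08 for Rab15 and -3.21 for Rab39. On the smaller slide, with 3 arrays, they were 0.75, -1.72 and -2.21 in the same order, and no adjusted p within a slide passed. The smaller slide held 1 macrophage array against 2 microglia arrays, so that its test takes the spread from the microglia arrays alone.

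**Figure D2:**
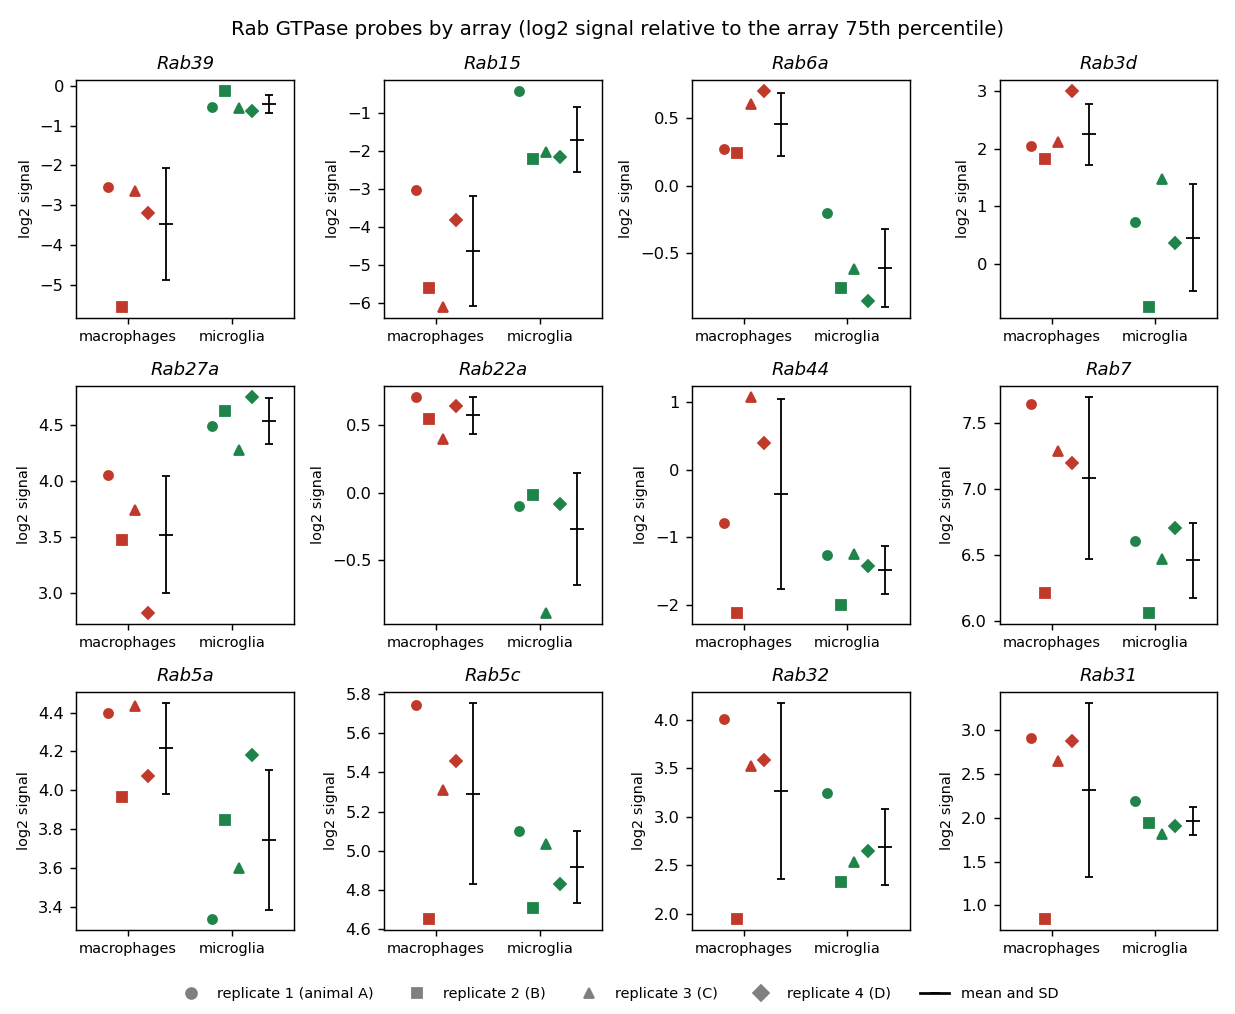
Each panel gives 1 gene's log2 signal (vertical axis, relative to the 75th percentile of the array) on the 4 macrophage arrays in red and the 4 microglia arrays in green, with the marker shape giving the animal and the bar the mean and SD. For Rab39, Rab15, Rab6a, Rab3d, Rab27a and Rab22a the groups do not overlap, while for Rab7, Rab5c, Rab32 and Rab31 macrophage replicate 2 is the lowest macrophage array and lies within or below the range of the microglia arrays.

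Of the 10 tested Rabs of the endoplasmic reticulum and Golgi, only Rab6a passed the test, and the median difference of the 10 was 0.03. Rab6b, the paralogue of Rab6a that is best known from neurons, had log2 signals of -2.71, -0.16, -4.65 and -4.48 in macrophages, against 0.44, 0.52, -0.71 and -0.13 in microglia. It was lower in macrophages in all 4 animals, but macrophage replicate 2 was close to the microglia arrays, and it was detected on only 2 of 4 macrophage arrays. The difference was -3.03 (SE 0.92, limma, adjusted p = 0.0911), and without macrophage replicate 2 it was -3.97 (adjusted p = 0.00385), with detection on 1 of 3 macrophage arrays. With macrophage signals raised to each array's lowest detected signal, Rab6b differed by -2.63 over all arrays and by -3.45 without that array. Rab2a, which serves traffic between the endoplasmic reticulum and the Golgi, had 5.17, 4.99, 4.74 and 4.86 in macrophages, against 4.96, 4.67, 4.57 and 4.82 in microglia. These groups overlapped, and the 95% interval of the difference, -0.28 to 0.65, lies within a 2-fold change either way. Rab18, known from lipid droplets, did not overlap between the groups, at 1.88 to 3.01 in macrophages and 1.17 to 1.87 in microglia (adjusted p = 0.218). The differences of the others ran from -0.65 for Rab33b to 1.66 for Rab19, whose adjusted p was 0.188.

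Among 9 tested Rabs of the early endosome none passed, and their median difference was 0.36. Rab22a, which takes part in sorting and recycling at early endosomes, had 0.71, 0.55, 0.39 and 0.64 in macrophages, against -0.10, -0.01, -0.89 and -0.08 in microglia. The groups did not overlap, and the difference of 0.84 (SE 0.25, limma) had an adjusted p of 0.0878. The Rab5 genes encode the proteins that drive fusion of early endosomes. Rab5a had 4.40, 3.96, 4.43 and 4.07 in macrophages, against 3.34, 3.85, 3.60 and 4.18 in microglia. Rab5b had 2.36, 1.87, 2.10 and 2.04 in macrophages, against 2.63, 2.06, 1.67 and 1.95 in microglia. Rab5c had 5.74, 4.65, 5.31 and 5.46 in macrophages, against 5.10, 4.71, 5.04 and 4.83 in microglia. All 3 overlapped between the groups, with differences of 0.47 for Rab5a, 0.02 for Rab5b and 0.37 for Rab5c, and the 95% interval of Rab5b ran from -0.57 to 0.60. Rab20, known from maturing phagosomes of macrophages, had 1.22, -0.22, 1.08 and 1.35 in macrophages, against 1.10, 0.85, 1.16 and 1.44 in microglia, a difference of -0.28 (95% interval -1.12 to 0.55). Rab31, which carries cargo between the trans-Golgi network and endosomes, had 2.91, 0.84, 2.65 and 2.88 in macrophages, against 2.19, 1.94, 1.82 and 1.91 in microglia. Replicate 2 was the lowest of all 8 arrays for Rab31 and the other macrophage arrays were the highest. Its difference was 0.36 over all arrays (adjusted p = 0.670) and 0.85 without macrophage replicate 2 (adjusted p = 0.0268). Rab21, known from integrin traffic, had 0.46 to 2.29 in macrophages and 0.52 to 1.11 in microglia, with an adjusted p of 0.251 over all arrays and 0.0195 without that array. Rab4a was detected on 2 of 4 macrophage arrays, spanned -5.81 to 1.20 in macrophages and -2.90 to -0.04 in microglia, and gave an interval from -4.75 to 1.72, too wide to place it.

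Of the 10 tested Rabs of recycling endosomes and the plasma membrane, Rab15 was the only one to pass, and the median difference was 0.16. Rab11a, the marker of the recycling endosome, had 2.80, 3.05, 2.66 and 2.64 in macrophages, against 2.58, 2.50, 2.71 and 2.60 in microglia. Both groups were tight and overlapped, with a difference of 0.19 (95% interval -0.26 to 0.64). Rab8a, which acts in transport to the plasma membrane and the cilium, had 6.53, 5.36, 6.43 and 6.23 in macrophages, against 5.84, 5.26, 5.62 and 5.75 in microglia. It was higher in macrophages in 4 of 4 animals, with a difference of 0.52 (adjusted p = 0.331), and without macrophage replicate 2 of 0.78 (adjusted p = 0.0484). Rab35, known from fast recycling, was at 1.95 to 2.34 in macrophages and at 2.42 to 3.06 in microglia without overlap (difference -0.61, adjusted p = 0.139). Rab13, known from tight junctions, was at -1.86 to -0.24 in macrophages and -3.40 to -1.35 in microglia (difference 1.46, adjusted p = 0.128). Its highest macrophage array was replicate 2, where endothelial markers were also highest. Macrophage replicate 4 had the next highest Rab13 signal, at -0.79, but the lowest endothelial median of the macrophage arrays. Whether RNA of endothelial cells added to the Rab13 signal was not tested. A second Rab13 probe was detected on 2 arrays and was not tested. It went the other way, with a mean of -4.50 in macrophages and -3.86 in microglia.

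The 5 tested Rabs listed under late endosomes, lysosomes and lysosome-related organelles had a median difference of 0.48, and none passed. Rab39, described above, is listed with the less well placed Rabs and is not among these 5. Rab7, which brings late endosomes and phagosomes to the lysosome, had 7.65, 6.21, 7.29 and 7.19 in macrophages, against 6.61, 6.06, 6.47 and 6.70 in microglia. The macrophage sample was the higher one in each of the 4 animals, although replicate 2 overlapped with the microglia arrays. The difference was 0.63 (SE 0.33, limma, adjusted p = 0.290), and 0.92 without macrophage replicate 2 (adjusted p = 0.0392). Rab32, which serves lysosome-related organelles and is loaded by the exchange factor that contains Hps4, had 4.01, 1.95, 3.53 and 3.59 in macrophages, against 3.24, 2.33, 2.54 and 2.65 in microglia. Its difference was 0.58 over all arrays (adjusted p = 0.471) and 1.02 without macrophage replicate 2 (adjusted p = 0.0443). Rab38, the close relative of Rab32 known from pigment cells, was detected on no array with either of its probes.

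Rabs of regulated secretion spread widely, and 1 of the 6 tested had a difference above 0, with a median of -0.43 and no gene past the threshold. Rab3d, known from granules of exocrine and mast cells, had 2.05, 1.82, 2.12 and 3.0 in macrophages, against 0.73, -0.73, 1.48 and 0.38 in microglia. All macrophage arrays were above all microglia arrays, and the difference of 1.78 (SE 0.48, limma) had an adjusted p of 0.0624, and of 0.0450 without macrophage replicate 2. The dimmer Rab3d probe shown above had a mean of 0.70 in macrophages and -1.55 in microglia, a difference of 2.25 (adjusted p = 0.0274 over all passing probes). Rab27a, which holds secretory lysosomes and melanosomes at the cell cortex, had 4.05, 3.47, 3.73 and 2.82 in macrophages, against 4.49, 4.63, 4.27 and 4.75 in microglia. Rab27a was lower in macrophages in 4 of 4 animals without overlap (difference -1.01, SE 0.29, limma, adjusted p = 0.0795). Its adjusted p was under 0.05 with 5 alternatives, at 0.0415 with quantile normalization, 0.0368 with normexp, 0.0435 with a trend in eBayes, 0.0465 with the percentile over detected probes and 0.0416 in a fit to the authors' deposited table. It was 0.154 blocked by animal, 0.142 blocked by slide and 0.126 with centring on the array median. Rab27a passed in 0 of 8 fits that each left out 1 array. Its paralogue Rab27b was detected on 1 of 4 macrophage arrays and on all microglia arrays, at -4.89 to -2.42 in macrophages and -2.53 to -1.57 in microglia (measured difference -1.97, adjusted p = 0.0688). With macrophage signals raised to each array's lowest detected signal, the difference of Rab27b was -1.25, or 2.38-fold. The 1 macrophage array that detected Rab27b was replicate 2. Without it Rab27b was detected on 0 of 3 macrophage arrays and was, in the main processing, at least 2.95-fold lower in macrophages (measured log2 difference -2.52, limma, adjusted p = 0.00282). Over all arrays, normexp gave Rab27b a difference of -0.57 (limma, adjusted p = 0.118). A second Rab27b probe was detected on 2 arrays and was not tested. It went the other way, with a mean of -4.04 in macrophages and -5.04 in microglia. Rab3a, the Rab of synaptic vesicles, had -0.63, -0.28, 0.41 and 1.57 in macrophages, against 0.61, 0.52, 0.45 and 1.04 in microglia, with overlap and a difference of -0.39 (95% interval -1.42 to 0.65).

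The remaining 6 tested members have other or less well placed roles, and Rab39 was the only one of them to pass. Rab28, known from photoreceptor cells, had 3.56, 3.70, 3.27 and 3.24 in macrophages, against 2.88, 2.46, 2.79 and 2.89 in microglia. The groups did not overlap, and the difference of 0.69 (SE 0.22, limma) had an adjusted p of 0.10. Rab44, a large Rab known from immune cells, had -0.79, -2.12, 1.08 and 0.39 in macrophages, against -1.27, -2.00, -1.25 and -1.42 in microglia. Here again replicate 2 was the lowest macrophage array, and the difference was 1.13 over all arrays (adjusted p = 0.316) and 1.71 without it (adjusted p = 0.0402). The 11 members that were not tested were Rab17, Rab25, Rab26, Rab30, Rab33a, Rab34, Rab36, Rab37, Rab38, Rab39b and Rab40b. Of 10 members with several passing probes, Rab3c and Rab43 had probes with differences of opposite sign. Of the 57 members, 8 were detected on no array with any probe.

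Macrophage replicate 2 decided how many Rabs passed. It lay below the other 3 macrophage arrays in 25 of the 46 tested members and above them in 12. Without it, 8 members were higher in macrophages (Rab6a, Rab3d, Rab7, Rab8a, Rab21, Rab31, Rab32 and Rab44) and 3 were lower (Rab39, Rab27b and Rab6b). That was 23.9% of the members, beside 15.1% of all gene names, of which 8.27% were higher and 6.86% lower. All of these 11 had the same sign over all 8 arrays, but both fits share the remaining arrays, so that this is no separate support. Rab15, called over all arrays, lost its call without it, at -2.61 (limma, adjusted p = 0.0595). Members described above that passed in neither fit include Rab27a at -1.0 (adjusted p = 0.0731), Rab22a at 0.85 (0.0710), Rab28 at 0.60 (0.0890), Rab13 at 1.17 (0.156), Rab35 at -0.55 (0.13) and Rab18 at 0.62 (0.249). The higher ones include Rabs of the early endosome, late endosome, Golgi and plasma membrane and of secretory granules. In the fit blocked by animal over all 8 arrays, Rab15 alone passed, or 1 lower and 0 higher, beside 3.73% of all gene names (limma).

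**Figure D3:**
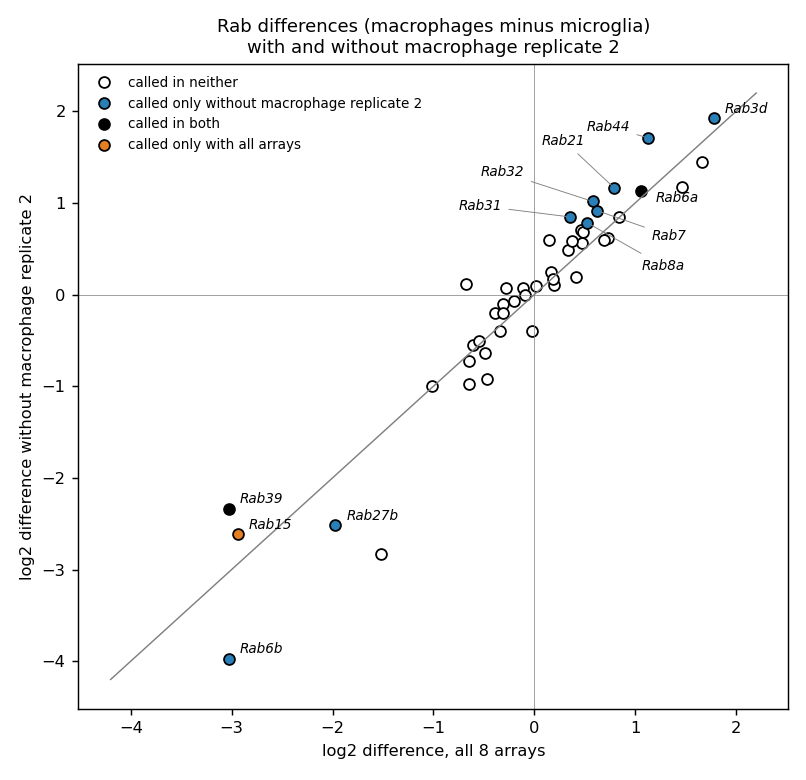
Each point is 1 of the 46 tested Rab genes, with its log2 difference (macrophages minus microglia) over all 8 arrays on the horizontal axis and without macrophage replicate 2 on the vertical axis; the diagonal marks equal values, and the fill says in which fit the adjusted p was under 0.05. Most Rabs above 0 lie above the diagonal, Rab6a and Rab39 pass in both fits, and Rab15 passes only over all arrays.

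Close paralogues were set against each other by the difference between the 2 genes' log2 signals on each array, compared between the groups with a two-sided exact permutation test. Of 14 pairs, 3 had the smallest p that 4 against 4 arrays allow, 0.0286, and none passed after Benjamini-Hochberg adjustment over the pairs (adjusted p = 0.133). Rab6a minus Rab6b was 4.09 greater in macrophages than in microglia, with Rab6a at 1.06 and Rab6b at -3.03. Rab3a minus Rab3d differed by -2.17 (macrophages minus microglia), and Rab9 minus Rab9b was 1.12 greater. Rab6b was detected on only 2 of 4 macrophage arrays and Rab9b on only 2 arrays of each group, so both pairs include undetected signals. Permuting within animals, 4 pairs cannot give a p below 0.125.

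Of the proteins that act on Rabs, 120 of 140 genes on the array were tested, and 3 were higher and 7 lower in macrophages (limma, adjusted p under 0.05), beside the 2.53% and 4.13% of all gene names. Their median difference was -0.01. None of 9 genes for GDI, escort protein and prenylation passed. Among 34 exchange factors, Dennd4c was higher and Hps4 and Rab3ip were lower. Hps4, a subunit of the BLOC-3 complex that activates Rab32 and Rab38, had 0.09, -0.76, 0.81 and -0.37 in macrophages, against 2.06, 2.27, 2.84 and 2.57 in microglia. The groups lay over 1 log2 unit apart, and Hps4 fell by 2.49 (SE 0.36, limma, adjusted p = 0.00559, and 0.0195 blocked by animal). Dennd4c, an exchange factor of Rab10, had 2.38, 1.81, 2.10 and 1.95 in macrophages, against 0.39, 0.18, 0.90 and 0.11 in microglia, a difference of 1.66 (SE 0.25, adjusted p = 0.00716, and 0.0298 blocked). Rab3ip, also called Rabin8 and an exchange factor of Rab8, was at 0.50 to 1.79 in macrophages and 2.60 to 3.14 in microglia (difference -1.48, adjusted p = 0.0290, and 0.0968 blocked by animal). Among 29 GTPase-activating proteins, Tbc1d16 was the only one to pass, at -1.64 to 0.29 in macrophages and 0.86 to 1.65 in microglia (difference -2.29, adjusted p = 0.0155, and 0.0380 blocked by animal).

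Of 48 tested effectors, 2 were higher and 4 were lower in macrophages. Mlph, melanophilin, which links Rab27a to a myosin motor, had -5.18, -0.48, -5.20 and -3.30 in macrophages, against 2.48, 1.98, 1.97 and 2.66 in microglia. It was detected on 2 of 4 macrophage arrays and on every microglia array, and it fell by 5.82 on the log2 scale (SE 0.96, limma, adjusted p = 0.0101, and 0.0377 blocked by animal). With macrophage signals raised to each array's lowest detected signal the difference of Mlph was -5.02, or 32.4-fold. Mical3, a Rab8 effector, was at -2.32 to -0.46 in macrophages and 0.43 to 0.97 in microglia (difference -1.84, adjusted p = 0.0262, and 0.0618 blocked by animal). Rilpl1, which binds Rab8 and Rab10, was at 1.93 to 3.37 in macrophages and 3.90 to 4.36 in microglia (difference -1.72, adjusted p = 0.0201, and 0.0718 blocked by animal). Bicd2, a dynein adaptor bound by Rab6, was the fourth lower effector, with a difference of -1.05 (adjusted p = 0.0410, and 0.105 blocked by animal), and is named here because the count is small. Erc1, an effector of Rab6, had 0.82, 2.53, -0.23 and -0.35 in macrophages, against -3.51, -1.73, -2.15 and -4.06 in microglia. Rab11fip1, an effector of Rab11, had 0.12, 2.35, -0.35 and -0.07 in macrophages, against -2.49, -3.96, -1.10 and -3.23 in microglia. Both were highest on macrophage replicate 2 and detected on 2 of 4 microglia arrays. Erc1 differed by 3.56 (adjusted p = 0.0268, and 0.0256 blocked by animal) and Rab11fip1 by 3.21 (adjusted p = 0.0404, and 0.123 blocked by animal). Without macrophage replicate 2 the differences were 2.95 for Erc1 and 2.59 for Rab11fip1, with adjusted p of 0.0201 and 0.0316. The other called regulators and effectors passed without it too, at -2.26 for Hps4 (adjusted p = 0.00554), 1.74 for Dennd4c (0.00538), -1.58 for Rab3ip (0.0214) and -2.03 for Tbc1d16 (0.0160). Mlph was at -6.84 (adjusted p = 0.000248, detected on 1 of 3 macrophage arrays), Mical3 at -2.11 (0.00807), Rilpl1 at -2.04 (0.0011) and Bicd2 at -1.0 (0.0387).

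**Figure D4:**
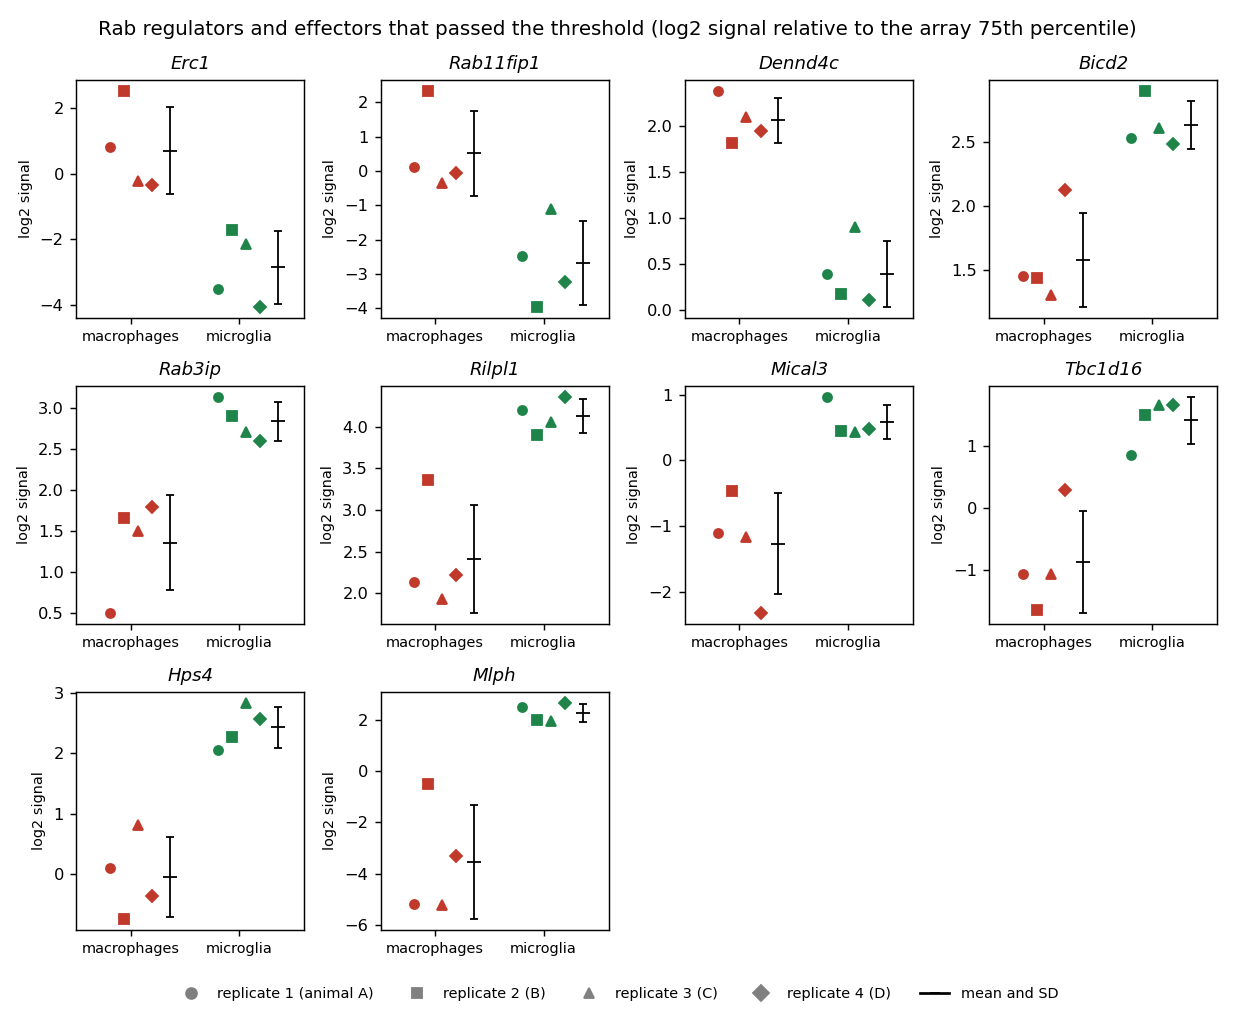
Each panel gives the log2 signal (vertical axis, relative to the 75th percentile of the array) of 1 of the 10 regulators and effectors with an adjusted p under 0.05, on the 4 macrophage arrays in red and the 4 microglia arrays in green, with marker shapes for the animals and the bar for the mean and SD. The groups do not overlap in any panel, and Erc1, Rab11fip1 and Dennd4c are the 3 that are higher in macrophages.

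Many Rab genes share a feature of their promoters, which the choice of members did not use. RefSeq promoter windows of 300 bases (GRCm38.p6, 250 bases before to 50 after a start) were matched for 47 of 57 members, 59 windows in all. The letters GGGCGG, the GC box bound by Sp1, stood on either strand in 69.5% of the member windows, against 35.7% of all 32851 windows. TATAAA stood in 6.78% of member windows, against 13.6% of all, CACGTG in 10.2%, against 7.15%, and GAGGAA in 18.6%, against 28.3%. The median content of G and C was 61.3% in member windows, against 52.7% in all, so that the shares are not matched on base composition. The windows of Rab39 and Rab6a, called in opposite directions, are shown with matches to any of the 4 motifs in capitals. Rab39, lower in macrophages, holds 6 GC boxes and no other match, with 70.7% G and C. The most upstream of 4 windows of Rab15, also lower in macrophages, holds 4 GC boxes and no other match, with 76.3% G and C, and is not printed. Rab6a, higher in macrophages, holds no GC box and 2 matches to GAGGAA, which lie on the opposite strand and so read TTCCTC in the window as printed, with 62.7% G and C.
Rab39, chr9:53706183-53706482, minus strand: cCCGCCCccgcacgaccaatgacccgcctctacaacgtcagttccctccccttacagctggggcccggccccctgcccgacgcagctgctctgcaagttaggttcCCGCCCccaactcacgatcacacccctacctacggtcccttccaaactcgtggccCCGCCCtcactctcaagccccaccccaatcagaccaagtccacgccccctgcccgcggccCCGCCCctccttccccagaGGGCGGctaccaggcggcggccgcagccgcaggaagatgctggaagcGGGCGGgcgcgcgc
Rab6a, chr7:100607336-100607635, plus strand: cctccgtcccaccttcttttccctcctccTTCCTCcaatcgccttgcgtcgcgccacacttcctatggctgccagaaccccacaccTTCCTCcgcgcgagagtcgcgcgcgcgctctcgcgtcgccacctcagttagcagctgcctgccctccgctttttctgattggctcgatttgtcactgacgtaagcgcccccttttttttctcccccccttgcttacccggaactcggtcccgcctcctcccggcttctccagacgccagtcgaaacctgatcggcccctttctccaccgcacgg
A match is a run of letters and was not tested as a binding site. A GC box stood in a window of 36 member genes, most of them not called. Whether a motif goes with the direction of a difference was not tested.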

How the data were processed

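The authors sorted the cells, amplified mRNA-derived cDNA by a global PCR and labelled it with Cy3, per the labels' protocols. Each array was read with Agilent Feature Extraction 10.7.3.1, per the file headers, and the deposited processed signal is an intensity, background-subtracted and detrended within the array but not normalized between arrays. The authors also deposited a table of log2 values whose column medians were 4.604 to 4.606; no source used here gives its normalization or centring, and it served as an alternative.

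Spots flagged as outliers were dropped, replicate spots of a probe averaged, log2 signals centred on the array's 75th percentile, and the brightest probe kept per gene name. Of 19720 names tested, 6992 were transcript identifiers. Macrophages minus microglia was fitted in limma 3.58.1 (lmFit, eBayes; R 4.3.3) over all 8 arrays, two-sided, with Benjamini-Hochberg adjustment and a threshold of 0.05. The pairs were tested by exact permutation over 70 splits. The script was tested on simulated data. Tables and figures used Python 3.11.15.

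Samples are paired by design, since the labels give the animal of each. Deviations from the group means correlated at 0.0621, 0.102, 0.0637 and -0.0125 in animals A to D. The main fit has no animal term.

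Arrays are named by animal. Genes described singly were every called member, the 4 largest differences short of the threshold among members measured on all arrays, a set of landmark Rabs, and the brightest member of each role. Of the regulator lists, the 3 largest per direction were taken. Other genes named with values were chosen after their values were seen. The members, roles and lists were chosen with earlier results of these data known. Alternatives covered scaling, background, filters, probes, slide and animal blocks, and leaving out each array. The number of arrays limits the precision.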

Additional observations from a re-analysis of the deposited data

Results flagged for a closer look

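In 6 of the 92 sets of 4 arrays (46 members in 2 groups), 1 array stood apart from the other 3 by Dixon's test at the 95% level, and chance flags about 1 in 20 such sets. Rab31 was at 0.84 on macrophage replicate 2, against 2.65 to 2.91 on the other macrophage arrays. Rab42, a little studied Rab, was at -1.75 on macrophage replicate 1, against -2.42 to -2.36 on the others. Rab15 was at -0.42 on microglia replicate 1, where the other microglia arrays were at -2.22 to -2.02. Rab23, known from hedgehog signalling, was at -2.89 on microglia replicate 1 and at -0.89 to -0.52 on the others. Rab22a was at -0.89 on microglia replicate 3 and at -0.10 to -0.01 on the others. Rab3c, a relative of Rab3a, was at 0.78 on microglia replicate 2 and at 1.05 to 1.09 on the others. Macrophage replicate 2 was the array set apart in 1 of the 6 sets. The causes were not tested.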

How the results depend on the processing

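Counts are given as higher and lower in macrophages (limma, adjusted p under 0.05); over all arrays they were 1 and 2 Rabs, 3 and 7 regulators and effectors, and 498 and 815 of all gene names. Leaving out 1 array at a time gave 0 to 8 and 0 to 3 Rabs, 1 to 8 and 2 to 9 regulators and effectors, and 198 to 1630 and 441 to 1353 gene names. The high ends came without macrophage replicate 2, which kept 496 of the 498 higher and 811 of the 815 lower names. Rab39 passed in 4 of these 8 fits, Rab6a in 2, Rab3d in 2 and Rab15 in 1. With the replicate block (animal) the counts were 0 and 1 Rabs, 2 and 3 regulators and effectors, and 255 and 481 gene names, of which 209 and 462 were shared. Blocked by slide they were 0 and 0 Rabs, 1 and 5 regulators and effectors, and 270 and 580 names. Within the larger slide they were 0 and 0, 0 and 0, and 8 and 114, and within the smaller slide, with 1 macrophage array that is assumed to vary like the microglia arrays, 0 and 0, 0 and 1, and 55 and 195.

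Centring on the array median gave 3 and 1 Rabs, 5 and 5 regulators and effectors, and 803 and 633 names, so that 55.9% of the called names were higher in place of 37.9%. Taking the percentile over probes detected on every array gave 1 and 4 Rabs, 2 and 12 regulators and effectors, and 452 and 1267 names, with 26.3% higher. These scalings moved the median of all gene names to 0.23 and -0.14, and the median of the Rabs to 0.29 and -0.08. Such a scaling shifts every gene alike, so the sign of the Rab median depends on it by construction. Normexp gave 3 and 2 Rabs and 5 and 9 regulators and effectors, and eBayes with a trend gave 2 and 3, and 5 and 8. Testing only names detected on all 8 arrays gave 2 and 0 Rabs and 506 and 485 names, with 51.1% higher, where fewer names were tested and Rab39 and Rab15 were not. Without a filter there were 0 and 1 Rabs and 277 and 619 names among 34821. The mean of all passing probes gave 2 and 2 Rabs, and adjustment over all passing probes 1 and 1. Quantile normalization and the authors' deposited log2 table gave 1 and 3 Rabs each. Where a cause is not given here, the cause was not tested. None of the 14 paralogue pairs passed after adjustment in any fit, the replicate block (permuted within animals) included. The exact p cannot fall below 0.0286 with 4 against 4 arrays or 0.125 within animals, so that these tests had little or no room to pass. Over the 19 tested members described singly, no called difference changed sign. Of the alternative fits of Rab15, Rab39 and Rab6a, 35 lost the call, about as many as kept it, the fits within a slide included. Rab15 lost its call most often. A call was gained in 19 fits among 8 other members.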
